A study of Mus musculus with 6 samples.

Results

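The genes described here are 10 genes of cyclic GMP signalling, the route by which nitric oxide and natriuretic peptides act inside a cell. They were taken from a list, and each was read from the probe sets annotated to its symbol alone, with Gucy1a3 and Gucy1b3 found under their current symbols Gucy1a1 and Gucy1b1. All 10 were found, with 20 probe sets, among the 18193 genes of the table. For each gene the brightest probe set by its mean over the 6 clones leads, a choice that uses levels and not the genotype; the list itself was drawn up with results of these arrays known, among them the fall of Prkg2.

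The study set FHL2-/- mouse embryonic fibroblasts (MEFs) against wild type (WT) MEFs, to ask which transcripts differ without FHL2, an adaptor protein made of LIM domains. Each group held 3 clones that had become immortal spontaneously in culture, with 1 Affymetrix array per clone: E, H and J were knockout, E, F and I wild type, and the values of a genotype are always given in this order of clones. The labels call them biological replicates and name no treatment, strain, passage or embryo of origin, so p-values measure only how these clones differ among themselves. Values are log2 intensities, differences are knockout minus wild type with the standard error (SE) of a limma fit over all genes, and a gene is said to rise or fall where its Benjamini-Hochberg adjusted p lay under 0.05.

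Fhl2 read 6.01, 6.44 and 6.57 without FHL2 and 9.88, 8.57 and 9.64 with it (exact two-sided permutation p = 0.1, the smallest that 20 assignments allow); whether its probe set lies in the deleted part is not stated in the labels. Of 14 fibroblast markers 4 rose (Pdgfra 1.76, Dcn 2.04, Lum 4.81 and Postn 1.19) and 2 fell (Pdgfrb -0.64 and Thy1 -1.34). The summed level of the 14 (log2 of summed intensities) was 16.34 to 16.39 in the knockout and 15.87 to 16.10 in the wild type clones. Among markers of other cells, 1 of 7 endothelial (Tek 4.27) and 1 of 6 epithelial genes (Epcam 0.43) rose. In the neural list 2 of 6 genes fell (Tubb3 -3.2 and Nes -0.81), and 0 of 7 macrophage genes passed. Knockout clone H stood apart from the other clones, with an array weight of 0.385 against 1.07 to 1.56, and the table gives wild type clone E to 9 decimals but the rest to 3. Of all genes 19% passed and 38.9% had groups that did not overlap. Probe sets differ in brightness, so levels are compared between clones and not between genes; the number of arrays limits the precision, and less RNA per cell cannot be told apart from fewer cells that hold it.

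Cyclic GMP is made by guanylyl cyclases. The soluble enzyme is a pair of an alpha and a beta subunit that nitric oxide switches on, while the membrane receptors Npr1 and Npr2 carry a cyclase domain inside the cell and respond to natriuretic peptides. Most effects run through the cyclic GMP-dependent kinases, Prkg1 in smooth muscle, platelets and fibroblasts and Prkg2 in gut, kidney, brain and growth plate cartilage, and phosphodiesterases such as Pde5a end the signal. In the growth plate, C-type natriuretic peptide (Nppc), its receptor Npr2 and Prkg2 act in sequence to drive bone growth, and the clearance receptor Npr3 takes the peptide away.

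Of the 10 genes, 1 rose (Npr2), 2 fell (Prkg2 and Nppb) and 7 did not pass. In all genes 9.04% rose and 10% fell; since the list was drawn up with these results known, nothing is read from the members' count. The groups did not overlap in 4 of the 10 members, Prkg1 and the 3 that passed, and in 38.9% of all genes. The median difference of the members was 0.091, against 0.043 over all genes.

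**Figure D1:**
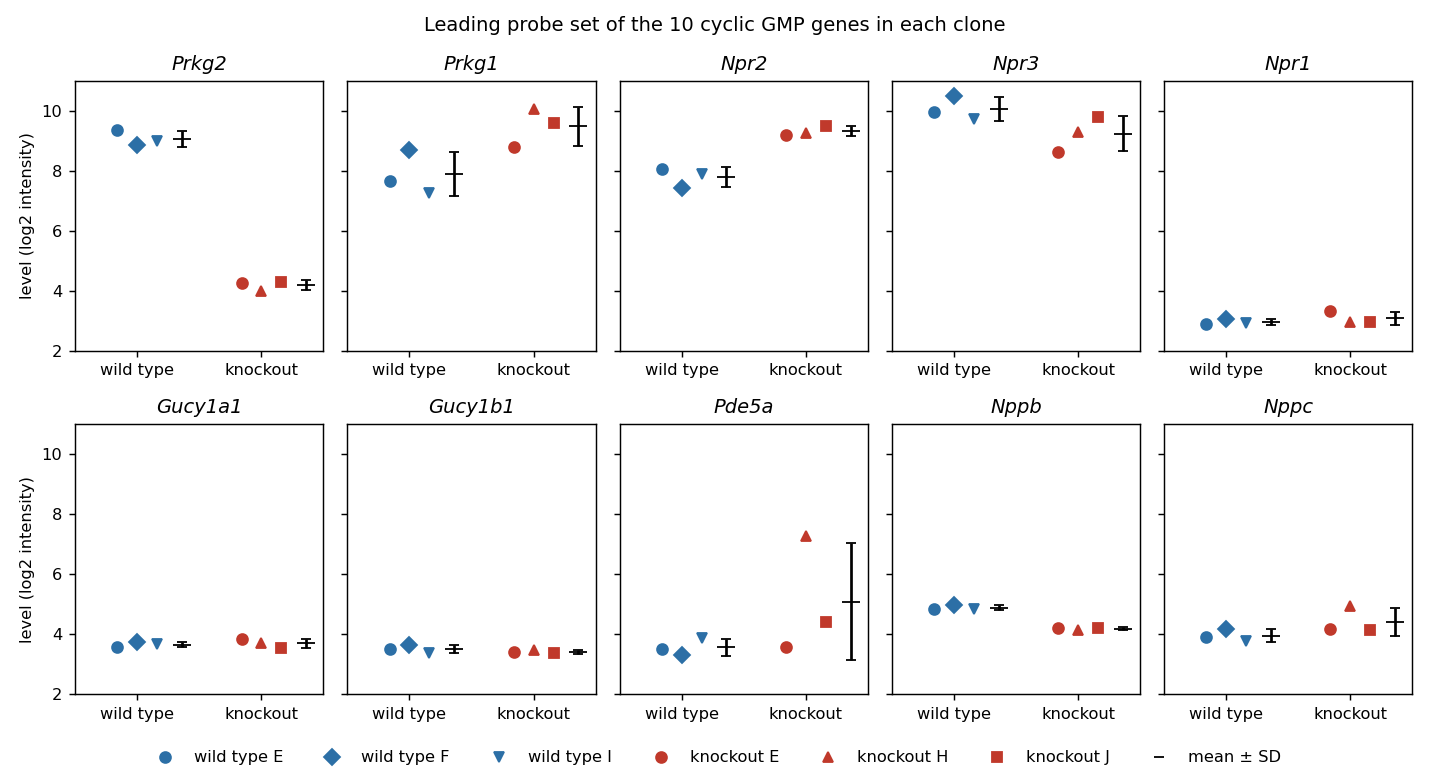
Level (log2 intensity) of the leading probe set of each of the 10 genes in wild type (blue) and knockout (red) clones; 1 point per clone, with the mean ± SD of 3 clones in black. Prkg2 lies at 8.85 to 9.37 in wild type and 4.0 to 4.30 in knockout clones, Npr2 is higher in all knockout clones, and Pde5a is high in knockout clone H at 7.28.

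The 2 kinases differed in opposite directions. Prkg2, the membrane-bound cyclic GMP kinase, read 9.37, 8.85 and 9.0 in wild type clones and 4.26, 4.0 and 4.30 in knockout clones. All knockout clones therefore lay far below all wild type clones, with little spread inside either group. The means were 9.07 ± 0.27 (SD, n = 3) and 4.19 ± 0.161 (SD, n = 3), a difference of -4.89 (SE 0.17), or 29.6-fold on the linear scale; no p is given for this gene, whose fall was known when the list was made. Its leading probe set is 1435460_at. The knockout readings lay below the medians of their arrays (4.52 to 4.54), so the size of the fall is not exact.

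A second probe set of Prkg2 (1435162_at) gave 8.73, 8.24 and 8.62 in wild type and 2.92, 2.94 and 2.96 in knockout clones, a difference of -5.59 (SE 0.15). The third (1421354_at) was low in both genotypes, at 4.22, 4.21 and 4.60 in wild type and 4.02, 3.36 and 3.62 in knockout clones, and its difference of -0.68 (SE 0.20) did not pass over all probe sets (limma adjusted p = 0.0653; 16.8% of probe sets passed). The 3 probe sets thus shared a direction and differed in size, and the mean over them was -3.72. The exons that each probe set reads are not stated in the files.

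Prkg1, the soluble kinase that relaxes smooth muscle (1444232_at), read 8.79, 10.06 and 9.60 in knockout clones and 7.68, 8.71 and 7.28 in wild type clones. Every knockout clone lay above every wild type clone, though knockout clone E and wild type clone F were separated by little. The difference was 1.60 (SE 0.45, limma adjusted p = 0.0551), which did not pass. It passed without knockout clone E (1.94, limma adjusted p = 0.0483) and without wild type clone F (2.01, adjusted p = 0.0384). These were the lowest knockout and the highest wild type reading, so leaving either out widens the difference and is no independent support. It also passed with array weights (1.45, adjusted p = 0.0453) and over the more highly read genes alone (1.60, adjusted p = 0.0368). Over all settings the adjusted p of Prkg1 ran from 0.0368 to 0.167. Its other probe set gave 6.79, 8.20 and 7.63 against 5.70, 6.58 and 4.95, a difference of 1.80 (SE 0.50, adjusted p = 0.0537 over all probe sets), with the same order of clones.

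**Figure D2:**
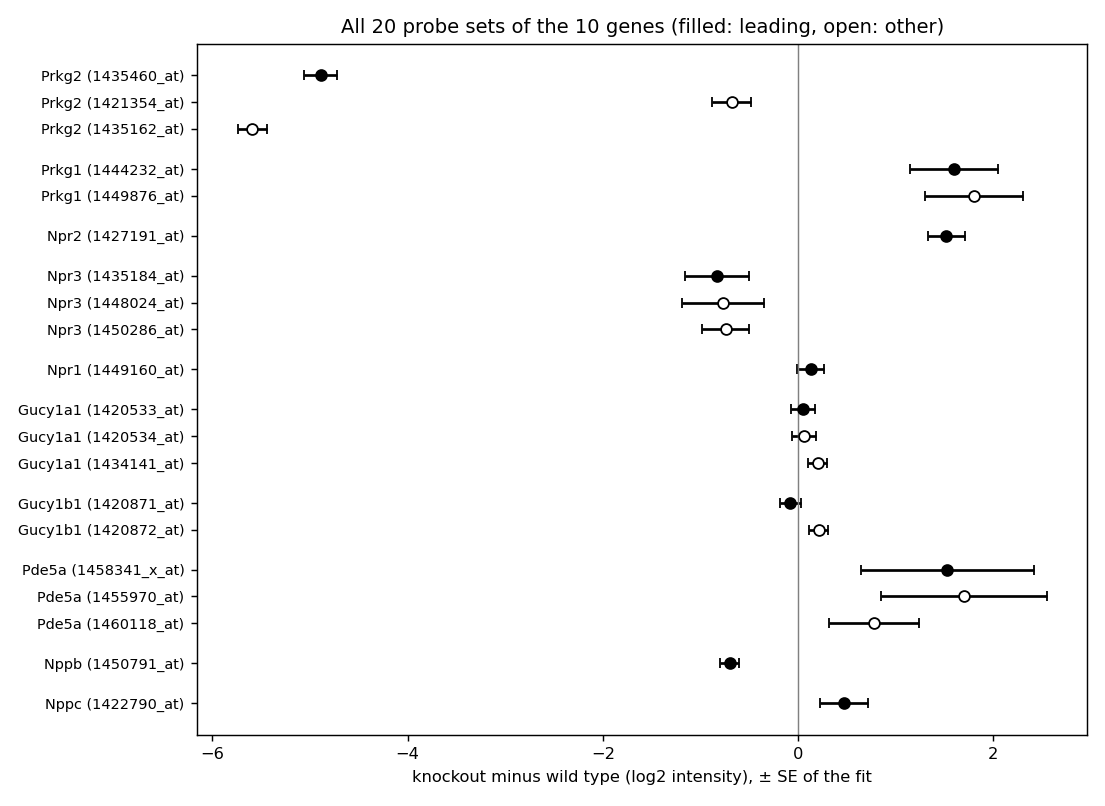
Difference between knockout and wild type clones (log2 intensity, bars ± SE of the fit over all probe sets, n = 3 per genotype) for all 20 probe sets of the 10 genes; filled points are leading probe sets and open points the others. The probe sets of Prkg1, Npr3 and Pde5a lie on 1 side of 0 for each gene, Prkg2 has 2 large falls and 1 small difference, and the pair for Gucy1b1 lies on both sides of 0.

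Among the receptors, Npr2 rose. This cyclase-bearing receptor for C-type natriuretic peptide read 9.19, 9.26 and 9.51 in knockout clones against 8.08, 7.42 and 7.90 in wild type clones. The knockout clones were close to each other and all above the wild type clones. The means were 9.32 ± 0.168 (SD, n = 3) and 7.80 ± 0.342 (SD, n = 3), and the difference was 1.52 (SE 0.19, limma adjusted p = 0.00507), or 2.87-fold. It passed under all 14 alternative settings, from 1.33 without wild type clone F to 1.66 without wild type clone E. The list was drawn up with results of these arrays known, and the settings refit the same arrays. The adjusted p of Npr2 is therefore a description and no independent support. Its only probe set is 1427191_at.

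Npr3, the clearance receptor, which has no cyclase domain, read 8.63, 9.29 and 9.79 in knockout clones and 9.97, 10.51 and 9.72 in wild type clones. The groups overlapped, since knockout clone J lay above wild type clone I. The difference was -0.83 (SE 0.33, limma adjusted p = 0.14, 95% interval before adjustment -1.63 to -0.03) and did not pass; it was -0.52 without knockout clone E and -1.11 without knockout clone J. The other probe sets gave -0.77 (SE 0.42) and -0.74 (SE 0.24), so that all 3 lay below 0.

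Npr1, the receptor for atrial and B-type peptides, stayed between 2.90 and 3.34 in all clones, below the median of every array. Its difference was 0.13 (SE 0.14, limma adjusted p = 0.579, 95% interval before adjustment -0.20 to 0.46).

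Of the ligands, Nppb fell by a small amount. Nppb, which encodes B-type natriuretic peptide and is best known from stressed heart muscle, read 4.83, 4.98 and 4.82 in wild type clones and 4.21, 4.12 and 4.20 in knockout clones. The difference of -0.70 (SE 0.10, limma adjusted p = 0.00666) was 1.62-fold, and it passed in all 13 alternative settings that kept the gene; it was left out where only the more highly read genes were tested. The knockout readings lay below the array medians, so the size of the fall is not exact. As for Npr2, the adjusted p of Nppb is a description, since the list was drawn up with results of these arrays known. Nppc, the ligand of Npr2, read 4.15, 4.95 and 4.14 in knockout and 3.91, 4.17 and 3.75 in wild type clones. Only knockout clone H lay clearly above the rest, and the difference of 0.47 (SE 0.25, limma adjusted p = 0.244) was 0.20 without it. In all the other clones Nppc read below the array medians, so a difference in the dim range may not be visible. Of 8 cardiomyocyte markers 1 rose (Tnni3, 0.67), 1 fell (Tnnt2, -3.98) and 5 lay below the array median in every clone, among them the heart myosins Myh6 and Myh7; 5 differences were above 0 and 3 below, with a median of 0.14. Their sum was 7.03 to 7.11 in the knockout and 7.48 to 9.20 in the wild type clones, where Tnnt2 alone among them read 6.32 to 8.94. That reading is from an _x_at probe set. With no _x_at, _s_at or _a_at probe set Tnnt2 differed by 0.29 (limma adjusted p = 0.216). Over the mean of all its probe sets it differed by -2.67 (limma adjusted p = 0.0128). The call of Tnni3 was lost with any clone but knockout H or J left out (0.0755 to 0.0969) and with repeated quantile normalization (0.0505). The part of Tnnt2 in the reading of Nppb was not tested. Nppa, the atrial peptide, is not among the 10 genes but lies beside Nppb on the chromosome; it read 3.07 to 3.44 in the knockout and 2.95 to 3.04 in the wild type clones (0.21, SE 0.13, limma adjusted p = 0.302).

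RefSeq (GRCm38.p6) promoter windows, from 250 bases before to 50 after a start, were at hand for 9 of the 10 genes, all but Prkg2, with 11 windows in all. They were searched on both strands for the TATA box (TATAAA), the GATA motif (GATAA), the AP-1 motif (TGANTCA), the cAMP response element (TGACGTCA) and the CArG box. The windows of the ligands are printed because these 2 alone among the members held a TATA box, which 13.6% of all windows of this length hold. It began at base -31 in Nppb and at base -29 in Nppc. The Nppb window, at chr4:147985650-147985949 on the plus strand, also held 2 GATA motifs (25.4% of all windows hold 1 or more), at bases -94 and -83; the motif is the site that GATA factors bind in heart genes. The Nppc window is chr1:86670524-86670823 on the minus strand. Capitals mark the motif letters, and a match is a description of the sequence.
Nppb: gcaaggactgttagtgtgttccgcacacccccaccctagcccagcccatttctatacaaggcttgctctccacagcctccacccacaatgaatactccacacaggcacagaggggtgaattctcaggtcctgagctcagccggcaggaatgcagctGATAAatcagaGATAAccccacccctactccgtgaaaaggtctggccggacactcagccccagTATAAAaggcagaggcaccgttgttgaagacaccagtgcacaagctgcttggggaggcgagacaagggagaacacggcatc
Nppc: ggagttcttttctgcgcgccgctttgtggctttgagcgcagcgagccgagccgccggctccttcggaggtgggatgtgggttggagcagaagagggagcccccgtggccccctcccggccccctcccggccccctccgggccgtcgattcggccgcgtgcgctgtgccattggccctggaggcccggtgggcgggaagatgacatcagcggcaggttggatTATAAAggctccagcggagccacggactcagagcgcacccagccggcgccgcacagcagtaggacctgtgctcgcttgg

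Among the other windows, 1 of Prkg1 held a GATA motif, and no window of a member held the AP-1 motif, the cAMP response element or the CArG box, which 7.81%, 1.79% and 1.63% of all windows hold. Both ligand genes thus held a TATA box, while on the arrays Nppb fell and Nppc did not pass.

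The subunits of soluble guanylyl cyclase on the list were read low in both genotypes. Gucy1a1, the alpha 1 subunit, read 3.84, 3.71 and 3.54 in knockout and 3.55, 3.72 and 3.66 in wild type clones, a difference of 0.05 (SE 0.12, limma adjusted p = 0.796, 95% interval before adjustment -0.23 to 0.33). Gucy1b1, the beta 1 subunit, read 3.39, 3.48 and 3.36 against 3.49, 3.62 and 3.36 (-0.08, SE 0.11, limma adjusted p = 0.668, 95% interval before adjustment -0.34 to 0.18), and its second probe set had the other sign (0.21, SE 0.10). All these readings lay below the array medians of 4.44 to 4.54, so a difference in the dim range may not be visible.

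Pde5a, the phosphodiesterase that hydrolyses cyclic GMP and is the target of sildenafil, varied most among the knockout clones. It read 3.55, 7.28 and 4.41 in knockout clones and 3.49, 3.30 and 3.86 in wild type clones. Knockout clone H was high, and knockout clone E lay within the wild type range. All clones but knockout H read below the array medians. The SD was 1.95 in knockout and 0.283 in wild type clones (n = 3), and the difference of 1.53 (SE 0.90, limma adjusted p = 0.294) was 0.43 without knockout clone H. The probe set 1455970_at gave 3.30, 6.81 and 4.07 in knockout and 3.02, 2.65 and 3.41 in wild type clones, again with clone H highest; 1460118_at gave 3.12, 5.01 and 3.64 against 3.01, 3.06 and 3.36.

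Of the 8 markers of smooth muscle, where Pde5a and Prkg1 are abundant, 5 were highest in clone H among the knockout clones, namely Acta2, Tagln, Cnn1, Myh11 and Actg2. Smtn (8.58, 7.62 and 8.56) and Des (5.2, 4.96 and 5.28) were lowest there, and Myocd read 3.03, 3.05 and 3.23. The alpha smooth muscle actin gene Acta2 read 10.71, 13.25 and 10.46 in knockout clones against 13.24, 12.86 and 12.98 in wild type clones, so clone H was at the wild type level and clones E and J below it. Tagln, an actin-binding protein, read 8.14, 12.76 and 9.01 against 13.25, 12.64 and 12.88. Cnn1, calponin, read 5.58, 9.66 and 5.09 against 11.23, 9.54 and 10.02. Myh11, the smooth muscle myosin, read 3.90, 6.89 and 3.56 against 5.01, 4.02 and 4.25, and only clone H exceeded wild type. With all clones, Acta2, Tagln and Cnn1 differed by -1.56, -2.96 and -3.48 and did not pass. Without clone H the differences were -2.44, -4.35 and -4.93 and passed (limma adjusted p = 0.00032, 0.00035 and 0.00109). With any other clone left out these genes did not pass (adjusted p 0.159 to 0.426). Clone H is the knockout clone that departs in these genes, so the smaller p-values are no independent support. The Acta2 value depends on the probe set: with no _x_at, _s_at or _a_at probe set it was -0.21 (limma adjusted p = 0.905), and -0.64 over the mean of its probe sets. The 8 smooth muscle markers summed to 11.26, 14.13 and 11.24 in knockout clones and 13.95 to 14.60 in wild type clones; 1 of them fell (Actg2, a call lost without knockout clone E or J or wild type clone E or F, adjusted p 0.0889 to 0.102), 0 rose and 0 lay below the array median in every clone. Their part in the readings of Pde5a and Prkg1 was not tested.

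**Figure D3:**
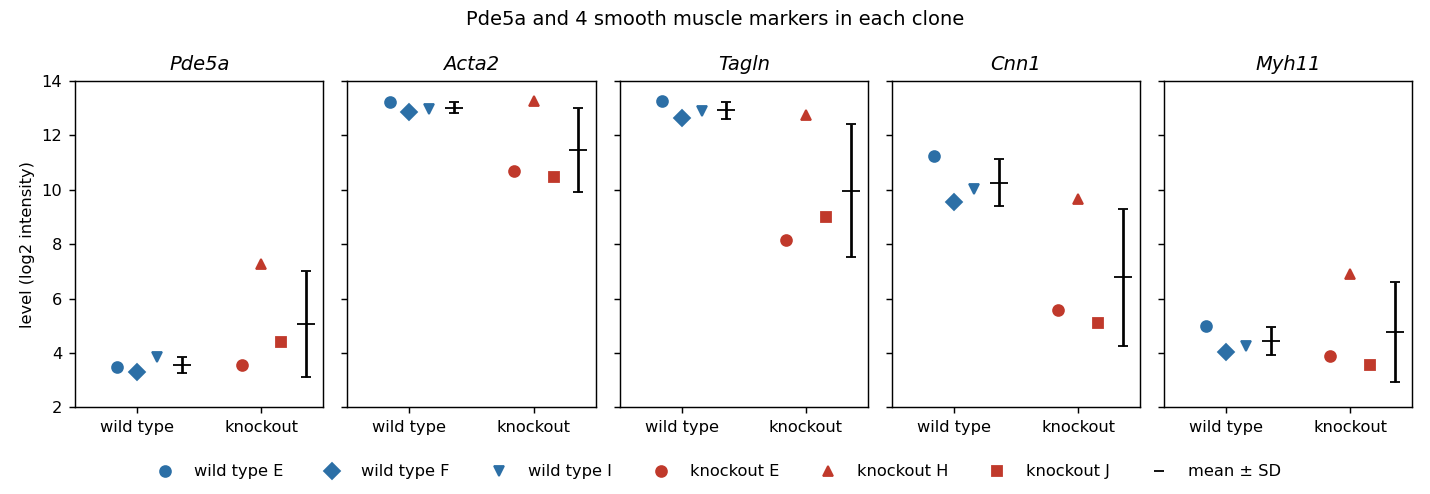
Levels (log2 intensity) of Pde5a and 4 smooth muscle markers in wild type (blue) and knockout (red) clones; 1 point per clone, mean ± SD of 3 clones in black. Knockout clone H (triangle) is highest for Pde5a and Myh11 and stands with the wild type clones for Acta2, Tagln and Cnn1.

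Cartilage is the tissue in which Nppc, Npr2 and Prkg2 act together. Its 8 markers summed to 11.44, 8.30 and 10.33 in knockout clones and 7.97 to 8.22 in wild type clones. In knockout clones E and J most of that sum came from Col2a1 and Sox9, and the other markers read 2.90 to 6.50 there. All 8 differences lay above 0, 1 rose (Col9a1, 0.52) and 0 fell. Col9a1 differed by 0.06 with no _x_at, _s_at or _a_at probe set. It did not pass when any clone but knockout H was left out (limma adjusted p 0.0688 to 0.106). Below the array median in every clone were 2, the defining genes Acan and Matn1. Sox9, the cartilage transcription factor that Prkg2 is known to hold back, read 10.08, 6.29 and 9.03 in knockout and 6.79, 7.19 and 7.13 in wild type clones. Its difference of 1.43 (SE 0.90, limma adjusted p = 0.325) did not pass, and without knockout clone H it was 2.52 (adjusted p = 0.0024). With any other clone left out Sox9 did not pass (adjusted p 0.43 to 0.661). Col2a1, the cartilage collagen, read 10.56, 5.86 and 9.15 against 5.06, 5.34 and 5.54 (3.21, SE 1.11, limma adjusted p = 0.0951), or 4.54 without clone H (adjusted p = 0.00077). It did not pass with any other clone left out (adjusted p 0.185 to 0.239). Comp, like Sox9 and Col2a1, was lowest in clone H among the knockout clones (6.50, 4.23 and 5.99), whereas Col11a2 (4.09, 5.90 and 4.23) and Matn3 (4.16, 4.94 and 4.55) were highest there. The part of these markers in the readings of Npr2 and Prkg2 was not tested.

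**Figure D4:**
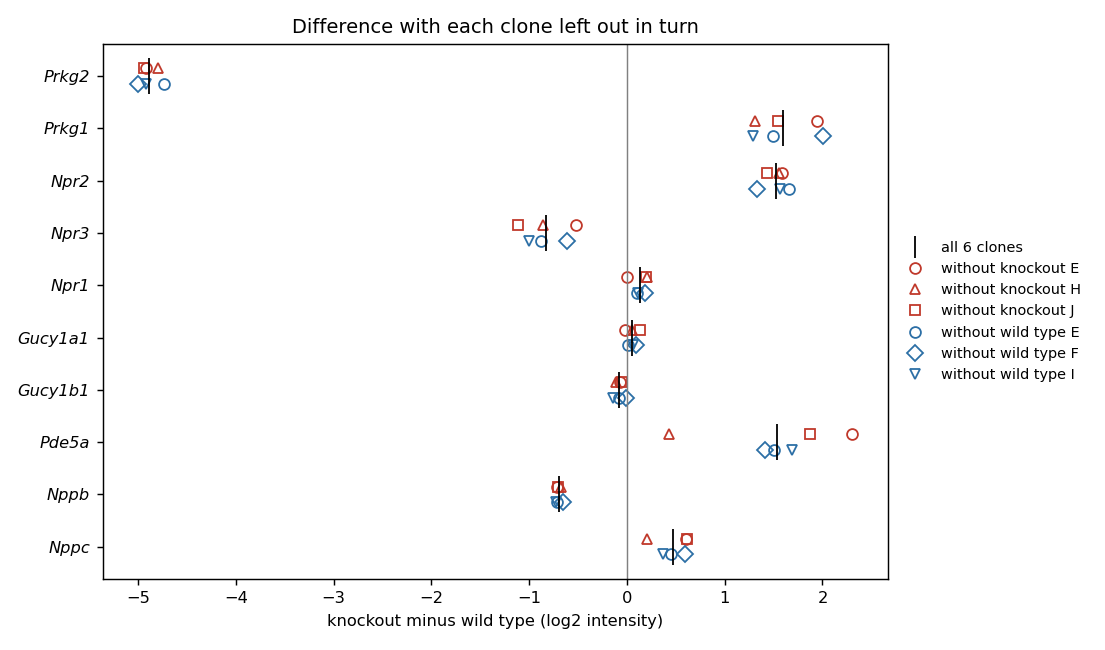
Difference between knockout and wild type clones (log2 intensity) of the 10 genes with all 6 clones (black bar) and with each clone left out (open symbols, red for knockout and blue for wild type). Pde5a moves from 1.53 to 0.43 without knockout clone H, while Prkg2 stays between -5.0 and -4.74, Npr2 between 1.33 and 1.66 and Nppb between -0.73 and -0.65.

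Beyond the 10 genes, 77 further genes of the pathway and of the related cyclic AMP kinase were listed and 68 were measured. Of these 4 rose, 8 fell and 56 did not pass, while 9.04% and 10% of all genes rose and fell. The median difference was 0.053, and the median size of a difference 0.198 against 0.23 over all genes. These lists too were chosen with earlier results of these data known, so nothing is read from their counts. The counts depend on the clones: without knockout clone H 6 rose and 15 fell, without knockout clone E 2 and 6, without knockout clone J 1 and 6, without wild type clone E 1 and 5, without wild type clone F 2 and 5, and without wild type clone I 2 and 7.

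The large movers upstream of the kinases were a cyclase subunit, a cofactor enzyme and a peptidase. Gucy1a2, the alpha 2 subunit of soluble guanylyl cyclase, read 3.62, 4.06 and 2.80 in knockout and 6.50, 6.92 and 6.35 in wild type clones, a fall of 3.10 (that is -3.10, SE 0.33, limma adjusted p = 0.00321), or -1.64 over the mean of its probe sets. Unlike the alpha 1 and beta 1 subunits, it was read above the array median in all wild type clones; its knockout readings lay below it, as did those of Gch1, so the sizes of these falls are not exact. Of 8 nitric oxide genes 1 fell, Gch1, which makes the cofactor that nitric oxide synthases need: it read 3.40, 4.27 and 3.85 against 6.54, 7.23 and 5.81 (-2.69, SE 0.39, limma adjusted p = 0.00717). The synthases Nos1, Nos2 and Nos3 differed by -0.05, 0.18 and 0.17 and did not pass. Of 7 other membrane cyclases, activators and ligands 0 rose and 0 fell, and Guca1b, an activator of retinal cyclases, differed by -0.18 (SE 0.19), or 0.01 without wild type clone E.

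Of 5 peptide-processing genes 1 rose. Mme, neprilysin, the membrane peptidase that degrades natriuretic peptides, read 8.74, 5.96 and 8.26 in knockout clones and 3.41, 3.35 and 4.33 in wild type clones. Clone H lay between the other knockout clones and wild type. The rise was 3.95 (SE 0.73, limma adjusted p = 0.0146) and 4.80 without clone H, but it did not pass when knockout clone J (adjusted p = 0.0561), wild type clone E (0.0639) or wild type F (0.0566) was left out.

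Among 15 other phosphodiesterases 1 rose, and its direction depends on the probe set. Pde2a, an enzyme that cyclic GMP stimulates, rose by 0.50 (SE 0.13, limma adjusted p = 0.0424) on an _x_at probe set, a kind open to cross-hybridization. With no _x_at, _s_at or _a_at probe set it differed by -1.22 (adjusted p = 0.0202), and by -0.32 on the mean of all. Its call was also lost without each clone other than wild type clone F (adjusted p 0.0555 to 0.129). Pde3b, which cyclic GMP inhibits, read 6.07, 8.47 and 4.99 in knockout and 7.36, 9.0 and 8.55 in wild type clones. Clone H was again near wild type, and the difference was -1.79 (SE 0.90, limma adjusted p = 0.223). Without clone H it was -2.77 (adjusted p = 0.011), but with any other clone left out it did not pass (0.241 to 0.494).

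Of 14 targets and partners of the kinases, 2 fell and 1 rose. Hspb6, a small heat shock protein of muscle that cyclic nucleotide kinases phosphorylate, read 5.48, 6.61 and 5.31 in knockout and 9.60, 8.71 and 8.96 in wild type clones (-3.29, SE 0.39, limma adjusted p = 0.00419). Rgs2, an inhibitor of G protein signalling that Prkg1 activates, read 5.44, 5.47 and 5.0 against 6.84, 7.80 and 7.12 (-1.95, SE 0.27, limma adjusted p = 0.00635). Csrp2, a LIM protein that binds Prkg1, read 9.61, 9.37 and 8.97 against 7.72, 7.12 and 7.72 (1.80, SE 0.23, limma adjusted p = 0.00522). The groups did not overlap in any of these 3, which were named because they passed, nor in 38.9% of all genes. Vasp, the classic substrate of both kinases, differed by -0.30 (SE 0.22, limma adjusted p = 0.397). Mrvi1, the partner through which Prkg1 quiets calcium release, read 4.52, 7.26 and 4.01 against 6.59, 6.16 and 5.86. The difference was -0.94 (limma adjusted p = 0.481), or -1.94 without clone H (adjusted p = 0.00291). With any other clone left out Mrvi1 did not pass (adjusted p 0.523 to 0.851).

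Of 9 channels and exporters, Abcc4 fell and Abcc5 rose; both encode pumps that move cyclic nucleotides out of the cell. Abcc4 read 4.07, 4.52 and 4.22 in knockout and 5.77, 5.82 and 5.01 in wild type clones (-1.26, SE 0.25, limma adjusted p = 0.0179). It no longer passed when knockout clone E (0.0596) or J (0.0647), or wild type clone E (0.0715) or F (0.0611), was left out. Knockout clones E and J read below their array medians, so the size of the fall is not exact. Abcc5 rose by 0.53 (SE 0.14, limma adjusted p = 0.0478), but did not pass when any clone except knockout H was left out (0.0854 to 0.138), nor in 5 other settings, among them the mean of its probe sets (0.23).

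Of 9 subunits and inhibitors of the cyclic AMP-dependent kinase, 3 fell and 0 rose. The regulatory subunit Prkar2a read 8.0, 8.48 and 7.94 in knockout and 9.70, 9.38 and 9.39 in wild type clones (-1.36, SE 0.18, limma adjusted p = 0.00567). The inhibitor Pkia read 2.96, 4.97 and 5.30 against 7.66, 7.84 and 6.92 (-3.06, SE 0.62, limma adjusted p = 0.0203), which did not pass when wild type clone E (0.0805) or F (0.0723) was left out. The inhibitor Pkig fell by 1.25 (that is -1.25, SE 0.32, limma adjusted p = 0.0425), but did not pass when any clone except knockout H was left out (0.107 to 0.123) or with the mean of its probe sets (0.0555). The catalytic subunits Prkaca and Prkacb differed by 0.13 and -0.33 and did not pass.

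**Figure D5:**
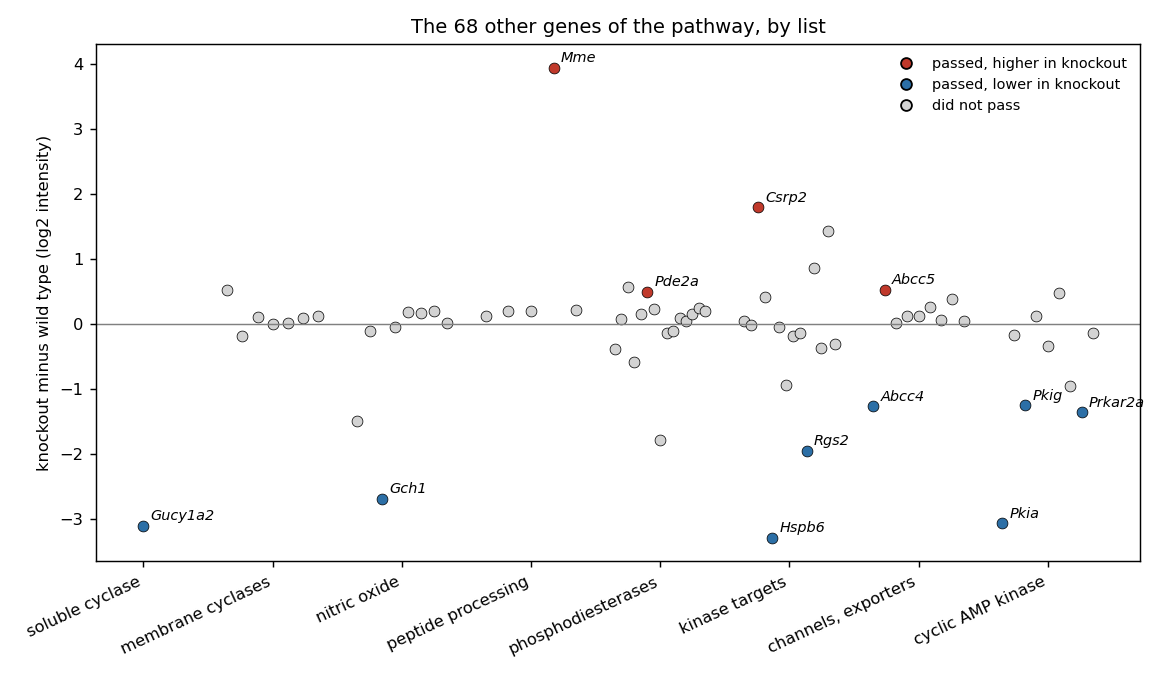
Difference between knockout and wild type clones (log2 intensity, vertical axis) of the 68 other measured genes, grouped by list along the horizontal axis; red points rose, blue points fell and grey points did not pass. The 4 that rose are Mme, Csrp2, Abcc5 and Pde2a, the last with the opposite sign on other probe sets; Hspb6, Gucy1a2 and Pkia lie below -3.

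Genes beside the 3 members that passed were read too. The 2 nearest measured genes on each side of Prkg2, among them Rasgef1b, differed by -0.38 to 0.01 and did not pass, all with readings of 2.43 to 4.16 in the 6 clones. Beside Npr2, Gba2, Rgp1, Spag8 and Hint2 differed by -0.02 to 0.27 and did not pass. Beside Nppb, 1 of 4 neighbours fell, 2510039O18Rik, which read 7.36, 7.11 and 6.86 in knockout and 8.02, 7.92 and 7.96 in wild type clones (-0.86, SE 0.14, limma adjusted p = 0.0113); Nppa, Plod1 and Clcn6 did not pass.

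The genes whose pattern over the 6 clones lay nearest to that of Prkg2, by root mean square distance after each gene's own mean was taken away, were Hoxc4 (distance 0.219, Pearson r = 0.998), 3110039M20Rik (0.231, r = 0.996) and C1qtnf12 (0.282, r = 0.996). Hoxc4, a homeobox gene of body position, read 3.59, 3.29 and 3.29 in knockout and 8.78, 8.58 and 8.27 in wild type clones. With 6 clones in 2 groups such likeness is common: 657 genes, or 3.61%, had r over 0.95 with Prkg2. For Pde5a, the other member with the widest spread (SD 1.5 over 6 clones), the nearest were Tnfrsf21 (0.284, r = 0.986), a death receptor, Cthrc1 (0.303, r = 0.976), a secreted protein of injured vessels, and Gm6958 (0.321, r = 0.973). Cthrc1 read 8.30, 12.22 and 9.80 in knockout clones and 8.64 to 8.98 in wild type clones, so that it too was highest in clone H, and 130 genes, or 0.715%, had r over 0.95 with Pde5a. These correlations describe the 6 clones, which share their genotype groups, and carry no test.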

How the data were processed

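RNA of 6 clones was biotin-labelled in 1 round of 3' amplification for 1-colour Affymetrix arrays, per the labels' protocols. The deposited values are log2 intensities of 45101 probe sets made by the authors with RMA, per the submitters' processing notes; no version or setting is named there. RMA equalises the arrays' distributions, so a shift shared by most genes would be lost. After 64 control probe sets, 932 with several symbols and 9160 unnamed here were left out, 34945 stood for 18193 genes; 34741 matched the RefSeq table (GRCm38.p6) by gene ID, which served names and gene order. The probe set with the highest mean represents a gene, and no gene was left out for a low level.

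Genotypes were compared over all genes by linear models with moderated variance (limma 3.58.1 under R 4.3.3, default prior, Benjamini-Hochberg at 0.05). With 3 clones a group, 4 residual degrees of freedom set the precision; arrays have no read depth. The 10 members and all lists were chosen with earlier results of these data known. Named besides the members are pathway genes that passed, the highest-read gene of a list with none, Fhl2, and the 3 genes nearest in pattern to Prkg2 and to the most variable other member; further genes were chosen after their values were seen. The alternatives were a trended robust prior, repeated quantile normalization, median centring, only genes at or above the median level, the mean of probe sets, every probe set tested, no _x_at, _s_at or _a_at sets, array weights, and each clone left out. The fit was checked on simulated data. Figures were drawn with matplotlib 3.10.9.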

Additional observations from a re-analysis of the deposited data

How the results depend on the processing

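Prkg2, Npr2 and Nppb kept their direction and their side of the threshold in every alternative that tested their leading or averaged probe sets. The third probe set of Prkg2 did not pass (-0.68, limma adjusted p = 0.0653). All settings refit the same arrays, and the list was drawn up with results of these arrays known. Staying past the threshold is therefore no independent support. The members that rose numbered 2 over the more highly read genes alone and with array weights, and 1 to 2 with a clone left out, the added gene being Prkg1; the members that fell numbered 1 over the more highly read genes, where Nppb was not tested. The genes called numbered 3464 in all, and 1661 (without wild type clone E) to 4750 (without knockout clone H) with a clone left out. Other pathway genes that rose numbered 2 with a trended robust prior, with median centring and with the mean of probe sets, and 1 to 6 with a clone left out. With no _x_at, _s_at or _a_at probe set 1 rose, but Csrp2, read by an _a_at set alone, was not tested there. Those that fell numbered 5 over the more highly read genes and 5 to 15 with a clone left out. Signs turned for Gucy1a1 (0 with repeated quantile normalization, -0.02 to 0.13 with a clone left out), Gucy1b1 (0.07 with the mean of probe sets, 0.21 on its other probe set) and Npr1 (0 to 0.20 with a clone left out). They also turned for Pde2a (-0.32 with the mean of probe sets) and, with no _x_at, _s_at or _a_at probe set, for Pde2a (-1.22) and Tnnt2 (0.29). The same held for Guca1b (0.09 with the mean of probe sets, -0.30 to 0.01 with a clone left out) and Myh11 (-0.33 with array weights, -0.70 to 0.97 with a clone left out). Apart from the smaller sets tested, the cause of these changes was not tested. No paired analysis was possible because the genotypes share only clone letter E. Readings below the array medians, as for Gucy1a1, Gucy1b1 and Npr1 in all clones and for Prkg2 and Nppb in knockout clones, limit what a difference can show. The same limit holds for Nppc and Pde5a in all clones but knockout H.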
